A study of Mus musculus with 4 samples.

Results

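The protein kinase C (PKC) isoforms described here are 8 genes, Prkca, Prkcb, Prkcd, Prkce, Prkch, Prkci, Prkcq and Prkcz, found by their symbols among the 48897 genes of the deposited table. Retinas of mice were sequenced in 4 libraries, 2 for anti-miR-124 and 2 for the negative control (NC), and the comparison asks what the knockdown of miR-124-3p, a microRNA abundant in neurons, did to messenger RNA during retinal development. All mice were C57BL/6 by the labels (C57BL/6J in the methods), with a genotype given as "wide type". At postnatal day 3 (P3) the left eye received 1 µl with 0.6 nmol of an antagomir, an antisense oligonucleotide against miR-124-3p, and the right eye received a scrambled control sequence, and retinas were taken at P9. Every library therefore came from an injected eye. The retinas of a group were pooled and came from at least 2 litters, so the values are averages over animals. The microRNA itself was not analysed here. The deposited columns name the eye and a number, and libraries with the same number are written as pair A and pair B.

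PKC enzymes phosphorylate serine and threonine residues and are grouped by what switches them on. The classical isoforms (alpha and beta, encoded by Prkca and Prkcb) respond to calcium and to diacylglycerol, a lipid that phospholipase C releases from the membrane. The calcium-independent isoforms (delta, epsilon, eta and theta, encoded by Prkcd, Prkce, Prkch and Prkcq) respond to diacylglycerol alone, and the atypical isoforms (iota and zeta, encoded by Prkci and Prkcz) respond to neither and act largely with partner proteins of the cell polarity machinery. In the retina, PKC alpha is the customary marker of rod bipolar cells, the interneurons that carry the rod signal.

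The 8 genes lie on 8 different chromosomes. On GRCm38, the build that the deposited coordinates match, they run from chr14:30595353-30626414 for Prkcd, the shortest at 31062 bases, to chr17:86167554-86657919 for Prkce, the longest at 490366 bases. Their annotated coding sequences (GENCODE M21) are between 1776 bases in Prkcz and 2211 bases in Prkce, in transcripts of 14 to 18 exons. Sequence likeness bears on whether reads could be credited to the wrong isoform. Over aligned coding bases, the pairs most alike were Prkca and Prkcb with 75.7% identical, Prkci and Prkcz with 68.8%, Prkce and Prkch with 67.4%, and Prkcd and Prkcq with 65.2%. Prkci and Prkcq were least alike, with 46.8%. These 4 pairs join members of the same subfamily, and every other pair stood at 61.5% or below.

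**Figure D1:**
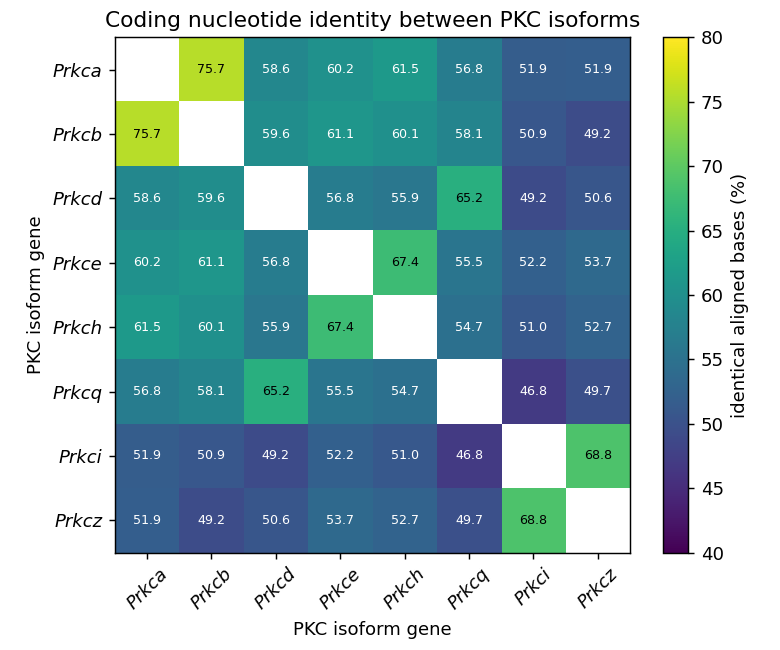
Percentage of identical bases between the aligned coding sequences of each pair of PKC isoforms, with genes on both axes in the order classical, calcium-independent, atypical and colour giving the percentage. The highest value is 75.7 for Prkca with Prkcb, and the lowest is 46.8 for Prkci with Prkcq.

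The longest run of identical bases between any of these coding sequences was 38, between Prkca and Prkcb. The longest runs common to the other 3 closest pairs are shown because a read lying wholly inside them would match both genes. Less similar pairs also share runs, of 26 bases in Prkcb and Prkcd and 24 bases in Prkcb and Prkce. A stretch of 17 bases of the Prkcd and Prkcq run is also the longest run of Prkcq with Prkca and with Prkce. Whether any read was that short was not examined, and untranslated ends were not compared. Capitals mark the in-frame codons for Asp-Phe-Gly, the conserved kinase motif that holds magnesium in the active site.
Prkcd and Prkcq: GACTTTGGGatgtgcaaagagaa
Prkce and Prkch: cccacgttctgtgaccactgtgg
Prkci and Prkcz: catgtgtttgagcaggcgtcca
The Prkcd and Prkcq run lies in exon 15 of both genes (GRCm38 chr14:30599671-30599693 on the minus strand, and chr2:11283801-11283823 on the plus strand). The Prkce and Prkch run lies in exon 6 of both (chr17:86482183-86482205 and chr12:73697980-73698002, both plus). The Prkci and Prkcz run lies in exon 10 of both (chr3:31038477-31038498, plus, and chr4:155286829-155286850, minus). All are coding exons, and within each pair the shared run falls in the exon of the same number.

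Prkcd is the isoform that the study singled out from these same libraries and followed by RT-qPCR, so its direction here is not independent of that choice. For its candidate genes the study reports an RT-qPCR trend similar to the sequencing, in repeats with separately isolated RNA. The Prkcd primers show which part of the transcript that assay reads.
Prkcd forward primer: cctcctgtacgaaatgctcatc
Prkcd reverse primer: gtttcctgttactcccagcct
The forward primer matches exon 16 of 18 (chr14:30599432-30599453), and the reverse primer matches exon 17 (chr14:30598802-30598822), giving an amplicon of 181 coding bases that spans an exon junction. Both matched Prkcd alone among annotated transcripts, in 7 of its 7 coding transcripts.

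All 8 isoforms were detected in every library and passed the filter on low counts. Libraries held between 16317239 and 18726963 counts. Levels are given as TPM (transcript abundance scaled to a fixed sum in each library), computed from the counts and the deposited gene lengths, so that genes can be compared. Mean TPM over the 4 libraries put the isoforms in the order Prkca, Prkce, Prkcb, Prkci, Prkcz, Prkch, Prkcd and Prkcq. Among the genes with counts in every library, Prkca stood at the 91.9th percentile of mean TPM and Prkcq at the 44.6th. The upper 5 isoforms spanned 111 to 39.9 TPM, and the lower 3 spanned 8.89 to 5.65 TPM, with a 4.51-fold step between Prkcz and Prkch.

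**Figure D2:**
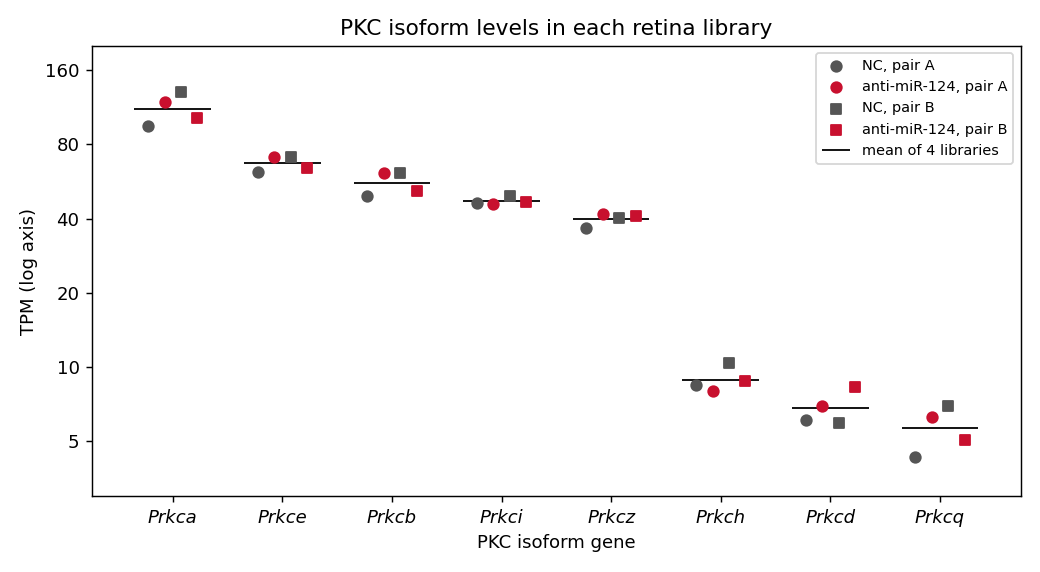
TPM of each PKC isoform on a log axis in each of the 4 retina libraries, with NC libraries in grey, anti-miR-124 libraries in red, pair A as circles, pair B as squares and a line at the mean. Prkca is highest in every library, and Prkch, Prkcd and Prkcq all lie at 10.4 TPM or below.

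Neighbours in this order were compared within libraries. In 6 of the 7 neighbouring pairs the higher gene was higher in 4 of 4 libraries, and in 5 of them the ranges over libraries did not overlap at all. Prkca exceeded Prkce by 1.65-fold on average (1.53 to 1.82 over the libraries), Prkce exceeded Prkcb by 1.20-fold, Prkcb exceeded Prkci by 1.19-fold and Prkci exceeded Prkcz by 1.18-fold. The exact two-sided sign-flip permutation test over 4 libraries gave p = 0.125 for these 6 pairs, the smallest value that 4 libraries allow. After adjustment over the 7 pairs this test gave 0.146. The order was taken from mean TPM in these same libraries, so the test gives no separate evidence for it. A gene length is the same in every library, so the test cannot show an error in it. Prkch and Prkcd had overlapping ranges, although Prkch was higher in each library. With the deposited lengths, Prkcd and Prkcq could not be ordered. Prkcd was higher in 3 of 4 libraries and lower in the NC library of pair B (exact sign-flip permutation p = 0.375).

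The order also depended on gene length. The deposited length of Prkcb is 9988 bases, 3.43 times its longest annotated coding transcript of 2911 bases, and that of Prkcd is 5814 bases, 2.04 times the 2851 bases annotated. For Prkcz the ratio was 1.24, for Prkcq 1.16, and for the other 4 isoforms between 0.954 and 1.05. With annotated lengths for the 8 isoforms, an alternative chosen after seeing the data, Prkcb rose from 55.9 to 191.8 TPM and stood first, ahead of Prkca. Prkcd moved from 6.85 to 14.0 TPM and passed Prkch, and Prkcz passed Prkci with 49.5 against 44.8 TPM. Prkcd then stood above Prkcq in every library, with 12.1 to 17.0 TPM against 5.00 to 8.07 TPM. Which transcript ends the retina uses was not tested. With both lengths, mean TPM put Prkca above Prkce, and Prkcb and Prkce above Prkci and Prkcz. These 5 stood above Prkch, Prkcd and Prkcq, and Prkch and Prkcd each had a higher mean than Prkcq.

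**Figure D3:**
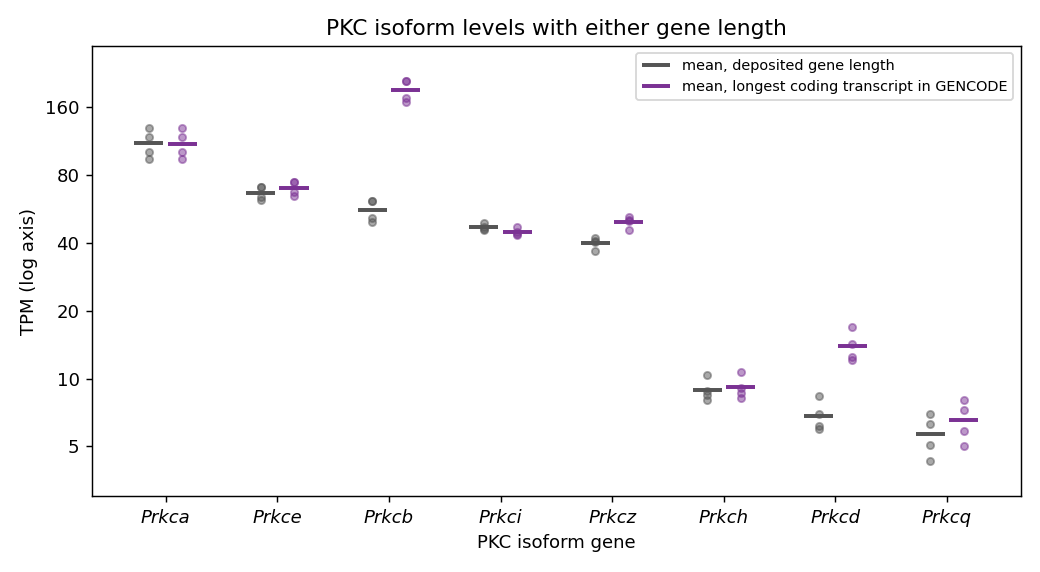
TPM of each PKC isoform on a log axis with the deposited gene length in grey and with the longest coding transcript annotated in GENCODE in purple, where points are the 4 libraries and lines their means. Prkcb moves from 55.9 to 191.8 and Prkcd from 6.85 to 14.0, while Prkca stays at 111.

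By TPM, the classical genes made up 48.7% ± 2.13 of the sum over the 8 isoforms, the calcium-independent genes 25.9% ± 0.539 and the atypical genes 25.5% ± 1.60 (SD, n = 4 libraries of both groups). The classical share was 46.8% and 50.9% in the NC libraries of pair A and pair B, against 50.0% and 46.9% in the anti-miR-124 libraries, so the groups overlapped. With annotated lengths, the classical share was 60.8%.

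Between the groups, no isoform passed the test, and the estimates ran from a log2 fold change of -0.21 for Prkch to 0.29 for Prkcd. The edgeR quasi-likelihood test found an adjusted p under 0.05 for 0 of 8 isoforms and for 0 of 17766 genes tested (0.0%). At an unadjusted p under 0.05 it found 0 of 8 isoforms against 694 genes (3.91%), and DESeq2 called 36 genes at its adjusted p, none of them an isoform. The adjusted p-values of the isoforms were between 0.989 and 0.997. The median log2 fold change of anti-miR-124 over NC was -0.03 for the 8 isoforms and 0.00066 for all genes tested, and the median absolute log2 fold change was 0.06 against 0.10. The labels do not say that the libraries of a group came from separate animals, so these p-values measure only the spread between these libraries.

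The study kept genes that moved the same way in both pairs. By TPM, Prkcd and Prkcz were higher after anti-miR-124 in both pairs (2 of 8 isoforms, against 32.3% of all genes tested), and Prkch and Prkci were lower in both (2 of 8, against 14.8%). The same genes were found by TMM-normalized CPM (counts scaled by library size and by a normalization factor for each library). On that scale the share of all genes was 22.8% for higher and 24.0% for lower. In TMM-normalized CPM, both anti-miR-124 libraries stood above both NC libraries for Prkcd and Prkcz (16.5% of all genes) and below both for Prkch and Prkci (16.8%). By TPM, Prkcd and Prkcz still did not overlap (20.8% of all genes), but Prkch and Prkci did, which left 0 isoforms below (9.27%). The isoform counts of 2 in 8 (25%) come from a small set and lie near these shares. Some of the directions rest on small differences. The log2 TPM difference was 0.02 for Prkcz in pair B and -0.02 for Prkci in pair A. Both amount to less than the counting error of a single library, 2.89% to 3.18% for these 2 genes. In TMM-normalized CPM the difference was 0.02 for Prkcz in pair B and -0.12 for Prkci in pair A.

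**Figure D4:**
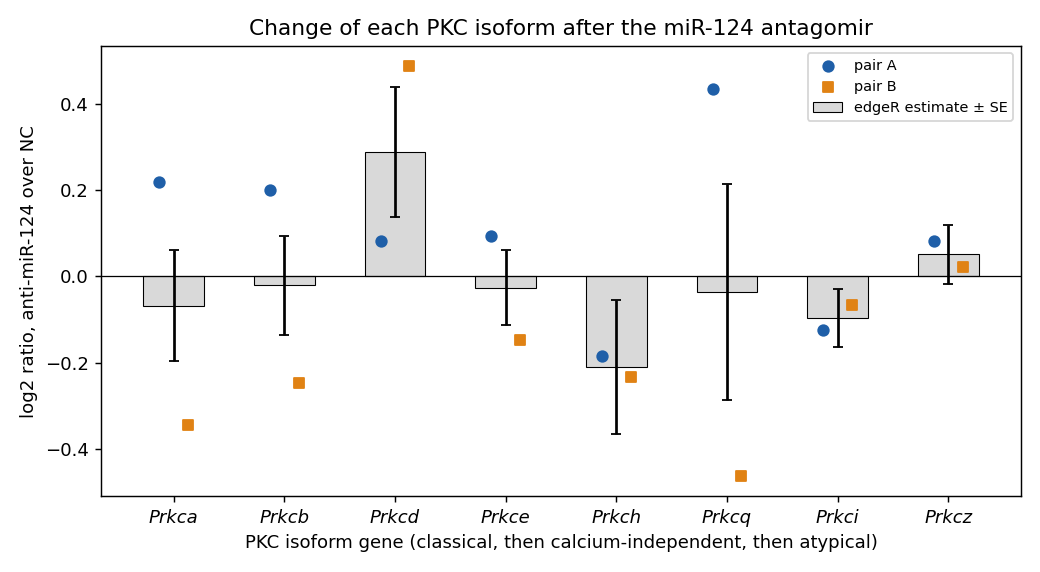
Log2 ratio of anti-miR-124 over NC for each PKC isoform by TMM-normalized CPM, with bars for the edgeR estimate, error bars of 1 SE, circles for pair A and squares for pair B. Prkcd and Prkcz lie above 0 and Prkch and Prkci below 0 in both pairs, while the other 4 isoforms lie above 0 in pair A and below 0 in pair B.

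Among the classical isoforms, Prkca was measured at 94.4 and 129.6 TPM in the NC libraries of pair A and pair B, and at 118 and 102 TPM in the anti-miR-124 libraries. By TPM both anti-miR-124 values lay between the NC values. In TMM-normalized CPM, with 260.4 and 326 in NC and 303 and 257 in anti-miR-124, that of pair B lay below both. On both scales the gap inside the NC group was wider than the difference of the group means. Its log2 fold change was -0.07 ± 0.13 (SE, edgeR adjusted p = 0.989). Prkcb, the other calcium-dependent isoform, was measured at 49.5 and 61.3 TPM in NC and at 61.2 and 51.5 TPM in anti-miR-124. By TPM it was lowest in NC of pair A and highest in NC of pair B, like Prkca, but in TMM-normalized CPM it was lowest in anti-miR-124 of pair B (155) and highest in anti-miR-124 of pair A (187), and both NC values (163 and 184) lay between. It had a log2 fold change of -0.02 ± 0.11 (edgeR adjusted p = 0.996). The ratio of Prkca to Prkcb stayed between 1.91 and 2.11 in the 4 libraries.

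The calcium-independent isoforms included both the highest and the lowest estimates. Prkcd, a kinase known for roles in apoptosis and in innate immune signalling, was measured at 6.13 and 5.95 TPM in the NC libraries and at 6.98 and 8.32 TPM in the anti-miR-124 libraries, from 188 to 275 counts. Pair B's anti-miR-124 library stood highest. The NC libraries were close together by TPM but not in TMM-normalized CPM, where they stood at 11.7 and 10.4, against 12.4 and 14.6 in anti-miR-124. The log2 TPM difference was 0.19 in pair A and 0.48 in pair B. In TMM-normalized CPM, which is less moved by a few abundant genes, the difference of pair A was 0.08 and that of pair B 0.49. The edgeR estimate was 0.29 ± 0.15 (1.22-fold, unadjusted p = 0.0997, adjusted p = 0.989). With pair B's anti-miR-124 library left out it was 0.17, and with that of pair A left out it was 0.40.

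Prkce, the most abundant of the calcium-independent isoforms, was measured at 61.8 and 71.1 TPM in NC and at 71.0 and 64.0 TPM in anti-miR-124. The NC values enclosed both others by TPM, whereas in TMM-normalized CPM (133 and 140.1 in NC, 142 and 126 in anti-miR-124) both others lay outside. The log2 fold change was -0.03 ± 0.09 (edgeR adjusted p = 0.989). Prkch was measured at 8.43 and 10.4 TPM in NC and at 7.99 and 8.79 TPM in anti-miR-124, from 152 to 205 counts. Its estimate was the lowest of the 8, with a log2 fold change of -0.21 ± 0.16 (edgeR adjusted p = 0.989). Prkcq, best known as the PKC of T cell receptor signalling, was measured at 4.32 and 6.97 TPM in NC and at 6.28 and 5.05 TPM in anti-miR-124. It had the fewest counts, 95 to 157, and the widest spread, with a log2 fold change of -0.04 ± 0.25 (edgeR adjusted p = 0.997), a log2 CPM difference of 0.43 in pair A and one of -0.46 in pair B. Counting error alone is 10.3% at 95 counts and 1.30% at the 5894 counts of Prkca in the library where it was highest.

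The atypical isoforms varied least. Prkci, required for cell polarity in the embryo, was measured at 46.1 and 49.2 TPM in NC and at 45.6 and 46.9 TPM in anti-miR-124, with an SD of 3.37% of its mean over the 4 libraries, against 14.3% for Prkca and 21.1% for Prkcq. Its log2 fold change was -0.10 ± 0.07 (edgeR adjusted p = 0.989). Prkcz was measured at 36.7 and 40.3 TPM in NC and at 41.9 and 40.8 TPM in anti-miR-124, with a log2 fold change of 0.05 ± 0.07 (edgeR adjusted p = 0.989). The ratio of Prkcz to Prkci was 0.796 and 0.819 in NC and 0.918 and 0.871 in anti-miR-124. That the groups do not overlap in this ratio is not a separate result. It follows from Prkcz lying above and Prkci below both NC libraries in TMM-normalized CPM. The ratio was looked at after the values were seen and was not tested.

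Prkca, Prkcb, Prkce and Prkcq differed in direction between the pairs. They were higher in anti-miR-124 in pair A and lower in pair B, as were 35.2% of all genes tested by TPM and 25.5% by TMM-normalized CPM. Marker genes of several retinal neurons had this pattern too. All 10 rod and ON bipolar markers, all 7 cone bipolar markers and all 8 ganglion cell markers were higher in anti-miR-124 in pair A and lower in pair B by TPM (9 of 10, 7 of 7 and 8 of 8 in TMM-normalized CPM). Of other lists, 10 of 11 genes that mature or dephosphorylate PKC and 7 of 10 diacylglycerol kinases had this pattern by TPM. In TMM-normalized CPM these were 5 of 11 and 6 of 10. Photoreceptor markers had it for 2 of 10 on both scales. The summed rod and ON bipolar markers, led by Grm6, the glutamate receptor of these cells, and Pcp2, came to 264 and 351 TPM in NC and 326 and 269 TPM in anti-miR-124, in the same order of libraries as the TPM of Prkca and Prkcb. The cone bipolar markers, led by Vsx1 and Scgn, summed to 185 and 231 TPM in NC and 234 and 176 TPM in anti-miR-124, and the ganglion cell markers, led by Nefl and Nefm, to 1036 and 1336 TPM in NC and 1540.1 and 966 TPM in anti-miR-124. The part of these cells in the isoform values was not tested, and in bulk retina fewer cells of a type and less RNA per cell cannot be told apart.

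**Figure D5:**
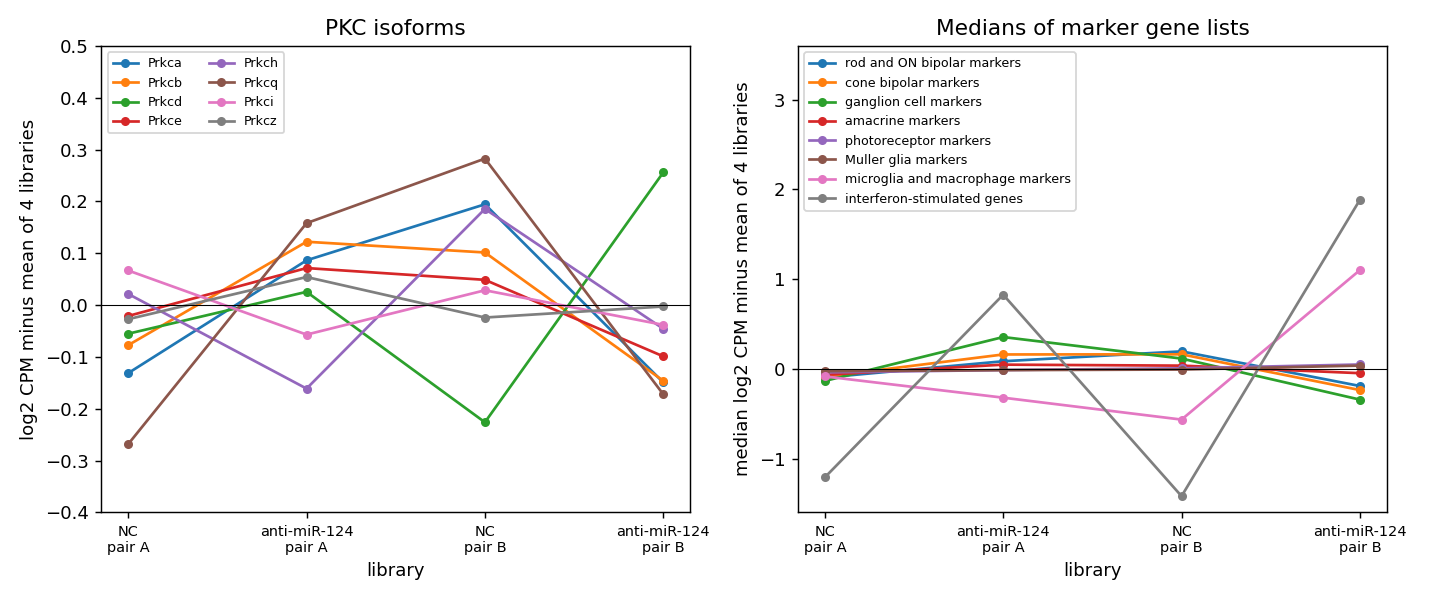
Log2 CPM of each PKC isoform (left) and the median of 8 marker gene lists (right) in the 4 libraries, each relative to its mean over the libraries, with different vertical scales. Prkca, Prkcb, Prkce and Prkcq are higher in anti-miR-124 of pair A and NC of pair B, as are the bipolar and ganglion cell markers, while Prkcd is highest in anti-miR-124 of pair B, where the microglia and interferon lists are highest.

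Prkcd stood apart from that pattern. It was highest in pair B's anti-miR-124 library, where the 16 microglia and macrophage markers, among them Ctss, summed to 712 TPM, against 275 TPM in anti-miR-124 of pair A and 279.6 and 226 TPM in NC. All 16 had estimates above 0, 4 of them with an unadjusted p under 0.05 (3.91% of all genes), 7 were higher in both pairs by TPM (32.3% of all genes), and none was at 0 in every library. The 12 interferon-stimulated genes, among them Stat2, summed to 52.2 and 57.1 TPM in NC and to 151 and 273 TPM in anti-miR-124, and each of the 12 was higher in both pairs and had an unadjusted p under 0.05. The part of microglia and of the interferon genes in the Prkcd values was not tested. The T cell markers, read beside Prkcq, differed widely in level. Cd3d and Cd3e were at 0 in every library and Cd3g had 1 count in all. Cd247 had 494 to 565 counts, against 95 to 157 for Prkcq. The part of T cells in the Prkcq values was not tested. Of the 9 T cell markers 3 passed the filter, and the list summed to 18.5 and 18.6 TPM in NC and 18.6 and 19.5 TPM in anti-miR-124, nearly all of it from Cd247, with Lck next.

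The NC library of pair A stood apart in lens genes. The 14 lens markers, led by the crystallins Cryaa and Cryba1, took 3.79% of its TPM sum and at most 0.0118% elsewhere, and all 12 that were tested had estimates below 0. TPM values are shares of a sum that includes these genes. The median log2 TPM difference of all genes tested was 0.10 in pair A, 0.04 there with the lens markers left out of the sum, and -0.00027 in pair B. With them left out, the same 2 isoforms were higher and the same 2 lower in both pairs, and Prkci alone was below NC in both anti-miR-124 libraries. The shares of all genes were not computed with the lens markers left out, so these counts have no comparison. Without this NC library the log2 fold changes were -0.22 for Prkca, 0.38 for Prkcd and -0.29 for Prkch, with no call. Photoreceptor markers (Nr2e3, Crx), Muller glia markers (Dkk3, Rlbp1) and amacrine markers (Tfap2b) were present in all libraries, as the tissue label says. By TPM, 6 of 10 photoreceptor genes were higher in both pairs and 2 lower, while 2 of 6 Muller glia genes and 2 of 7 amacrine genes were higher and 0 lower, beside 32.3% and 14.8% of all genes. In TMM-normalized CPM 4 of 10 photoreceptor genes were higher and 2 lower. Endothelial markers (Kdr, Cldn5) were lower in both pairs for 4 of 10 and higher for 2, on both scales. Of the pigment epithelium markers (Ttr, Dct), 7 of 7 tested had estimates above 0, but only 3 were higher in both pairs and 0 lower. That list summed to 76.5 and 115 TPM in NC of pair A and pair B, and to 163 and 119 TPM in anti-miR-124.

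The genes whose profile over the 4 libraries lay nearest to that of Prkca were Kcnt1, a sodium-activated potassium channel, Acot1, an acyl-CoA thioesterase, and Cmc4, at Euclidean distances of 0.03, 0.03 and 0.04 in centred log2 CPM, where the median over 16495 genes was 0.36. Kcnt1 had 86 and 124 counts in NC and 107 and 99 in anti-miR-124. For Prkcd they were Fgfbp3, Tmem158 and Arhgdia, at distances of 0.04, 0.04 and 0.05, with a median of 0.41. Arhgdia had 1791 and 1847 counts in NC and 1995 and 2638 in anti-miR-124. With 4 libraries, 118 genes lay within 0.1 of Prkca and 61 within 0.1 of Prkcd. The genes named are the nearest of all those searched. Counting error is 10.3% at 95 counts, a count within the range of Kcnt1, and is wider than its distance of 0.03. The ranks among such near genes are therefore not resolved.

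The genes around PKC signalling were read from 9 lists with 87 genes, of which 85 were tested. None passed an adjusted or an unadjusted p of 0.05 in edgeR, against 3.91% of all genes at the latter, and DESeq2 called 0 of them. By TPM, 27 were higher and 7 lower in both pairs, against 32.3% and 14.8% of all genes. By TMM-normalized CPM, 19 were higher and 17 lower, against 22.8% and 24.0%, so the tilt towards higher depended on the scale. The median log2 fold change of the 85 was 0.02. As no gene passed, the gene of each list with the highest mean TPM is named, and the counts per list are of genes higher or lower in both pairs by TPM.

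Upstream of the diacylglycerol-dependent isoforms, Gnaq, the G protein subunit that activates phospholipase C beta, had a log2 fold change of -0.00012 ± 0.08, and 2 of the 4 subunits listed were tested. Among 12 phospholipase C genes, 6 were higher and 1 was lower in both pairs, and Plch2 had 0.07 ± 0.07. Diacylglycerol kinases, which remove the lipid that activates PKC, had 2 of 10 higher and 1 lower, with Dgkd at 0.07 ± 0.07. Of 10 other proteins that bind diacylglycerol, 2 were higher and 1 was lower, with Unc13b, a synaptic vesicle priming protein, at -0.08 ± 0.08.

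Of the 7 PKC relatives, 4 were higher in both pairs and 0 lower, and Prkd3, a protein kinase D, had a log2 fold change of 0.00094 ± 0.09. Among the 11 genes that mature or dephosphorylate PKC, 1 was higher and 0 lower (1 and 5 in TMM-normalized CPM), with the chaperone Hsp90aa1 at -0.06 ± 0.05. Of 14 substrates and anchors, 4 were higher and 1 was lower, with Marcksl1, a relative of the PKC substrate Marcks, at 0.10 ± 0.06. The 13 polarity partners of the atypical isoforms had 6 higher and 1 lower, with Cdc42, the small G protein that binds the Par6 and atypical PKC complex, at -0.10 ± 0.08. In the CARD, BCL10 and MALT1 list, through which PKC theta and beta signal to NF-kappa B in lymphocytes, 1 of 6 was higher and 2 were lower, with Bcl10 at 0.20 ± 0.13.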

How the data were processed

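Total RNA of retina was sequenced in 4 libraries. The values used are raw read counts of each gene, which the authors deposited with coordinates and gene lengths. The submitters' processing notes name HISAT2 and mm9, but 99.83% of 36834 symbols matched to RefSeq overlapped GRCm38 in position, and GRCm38 is used here. The counting tool is not given in the sources used here. The library kit keeps strand, but how counting used it is not given, and 30 exon bases of Prkca overlap Apoh (0 to 1 counts) and 472 of Prkce overlap a locus not used here. The table's 4 columns of RPKM values were not used.

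Columns were assigned to groups by the eye they name. Counts were tested with edgeR 4.0.16 (R 4.3.3; quasi-likelihood test, two-sided, filterByExpr, TMM factors, all 4 libraries, no covariate, Benjamini-Hochberg adjustment over 17766 genes, threshold 0.05), with DESeq2 1.42.0 as an alternative. Scripts were tested on simulated data. TPM was computed from deposited counts and lengths. Libraries held 16317239 and 17992340 counts (NC) and 17150849 and 18726963 counts (anti-miR-124). Counting errors cover counting only. No libraries were duplicates, with a chi-square per degree of freedom of at least 3.48.

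The 8 isoforms and all gene lists were chosen with earlier results of these data known. Genes named were the isoforms, the gene with the highest mean TPM of each PKC list because none had an unadjusted p under 0.05, the 3 genes nearest in profile to Prkca and to Prkcd (mean TPM of at least 1), and the 2 genes with the highest mean TPM of each marker list. Some genes under this rule are not reported here. Other genes are named after their values were seen. The longest GENCODE M21 coding sequence of each isoform was aligned with MAFFT 7.526 in place of proteins. Seed matches of miR-124-3p were not analysed here. Alternatives were other normalizations, filters, tests, designs and gene lengths, and leaving out each library.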

Additional observations from a re-analysis of the deposited data

How the results depend on the processing

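No isoform passed an adjusted p of 0.05 in edgeR under any of the 12 alternative settings of the test. The number of genes called, 0 as reported, became 379 with no filter on low counts and 36 with DESeq2, and ran from 0 to 256 when 1 library was left out (256 without pair A's anti-miR-124 library, 57 without pair B's NC library, 12 without pair B's anti-miR-124 library and 0 without pair A's NC library). With a single library left in a group, that library is assumed to vary like the other group. With the number in the column names as a replicate block, 0 genes were called and 376 had an unadjusted p under 0.05, against 694 without it. Same-numbered libraries deviated from their group means with a correlation of -0.16 over genes, and the labels do not say that the number marks the same animals. With the numbers crossed as a block, a design chosen after seeing the data, 160 genes were called.

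Leaving out 1 library turned the direction of 4 isoforms, whose log2 fold changes then ran from -0.22 to 0.10 for Prkca, -0.16 to 0.11 for Prkcb, -0.11 to 0.062 for Prkce and -0.28 to 0.27 for Prkcq, above 0 when a library of pair B was left out. Prkcd (0.17 to 0.40), Prkcz (0.02 to 0.08), Prkch (-0.29 to -0.13) and Prkci (-0.12 to -0.08) kept their direction. For Prkca, Prkcb, Prkce and Prkcq the values were 0.10, 0.07, 0.0094 and 0.27 without pair B's NC library, and 0.05, 0.11, 0.062 and 0.13 without pair B's anti-miR-124 library. The number of isoforms below NC in both anti-miR-124 libraries was 2 by TMM-normalized CPM, 0 by TPM and 1 by TPM without the lens markers. The share of all genes was 16.8% by TMM-normalized CPM and 9.27% by TPM, and was not computed without the lens markers. Mean shares of the classical, calcium-independent and atypical genes, 48.7%, 25.9% and 25.5% by TPM, were 60.9%, 22.0% and 17.1% by counts, which favour long transcripts, and 60.8%, 20.1% and 19.1% with annotated lengths. Annotated lengths also reversed the log2 TPM differences of Prkce over Prkcb (-1.45), Prkci over Prkcz (-0.14) and Prkch over Prkcd (-0.61). Of the 85 genes around PKC signalling, 27 were higher in both pairs and 7 lower by TPM, but 19 and 17 by TMM-normalized CPM, a scale added after seeing the data. With 188 to 275 counts and 2 libraries a group, the SE of 0.15 limits what can be said of Prkcd.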

Other observations

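2 genes carry the letters of PKC in their symbols without encoding an isoform, and they are named here after their values were seen. Prkcsh encodes the beta subunit of glucosidase II, an enzyme that trims sugars on new proteins in the endoplasmic reticulum. Its counts were 1254 and 1401 in NC and 1392 and 1657 in anti-miR-124, with a mean of 124.7 TPM, above that of Prkca. Prkcdbp, now named Cavin3, encodes a protein of caveolae that binds PKC delta. It had 83 and 108 counts in NC and 90 and 120 in anti-miR-124, so the groups overlapped, with a log2 fold change of 0.06 ± 0.22 (edgeR).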
